A study of Mus musculus with 8 samples.

Results

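The genes of the proteasome were read out in sorted mesenchymal stem/progenitor cells (MSPCs) of mouse bone marrow, the niche cells that supply Cxcl12 and stem cell factor to blood progenitors. They were taken as the protein-coding genes whose symbol begins with Psma, Psmb, Psmc, Psmd, Psme or Psmf followed by a number, without Psmb8, Psmb9 and Psmb10, the inducible catalytic subunits. This rule found 43 of the 52636 genes in the table. Of these, 16 belong to the 20S core, 20 to the 19S cap and its assembly chaperones, and 6 to the activators and regulators of the core. The remaining gene, Psmc3ip, encodes a partner of meiotic recombination proteins and is not a subunit or regulator of the proteasome.

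Each of 8 libraries came from the MSPCs of a single C57BL/6 mouse. The 4 CTR mice were Flk2-cre+ Cxcr4fl/+ and the 4 cKO mice were Flk2-cre+ Cxcr4fl/fl, with an age of 6 weeks in the labels, while the study's methods give an older range for its mice. Both genotypes carry the Flk2-cre transgene, and both carry GFP in the Kitl locus, through which the cells were sorted. The study reports that cKO mice crossed to this GFP allele had membrane-bound stem cell factor at the wild-type level. Their hematopoietic stem cell numbers also returned to physiological levels. Whether stem cell factor protein was raised in the cKO mice compared here was not tested. By the study, Flk2-cre has been described to act in multipotent hematopoietic progenitors and the blood cells that derive from them. The comparison therefore asks how niche cells differ when progenitors lose CXCR4. Whether Cxcr4 was left intact in the sorted MSPCs was not tested here. CTR mice have a single floxed allele and GFP in Kitl, and are not wild type. The sample titles also carry a number between 26 and 32 for CTR2, CTR4, cKO2 and cKO4 and between 67 and 86 for the others, and the labels do not say what it stands for.

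The proteasome is the protease that degrades proteins tagged with ubiquitin. Its core is a barrel of stacked rings, with outer rings of alpha subunits that gate the entry and inner rings of beta subunits, of which Psmb5, Psmb6 and Psmb7 carry the active sites. The 19S cap binds ubiquitin chains, removes them and unfolds the substrate with a ring of ATPases, and it divides into a base next to the core and a lid above it. Other activators, such as PA28 and PA200, open the core without ubiquitin. The subunits are assembled in fixed proportions, and transcription factors such as Nfe2l1 raise many of their genes together when proteasome activity is short.

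Total counts per library lay between 31047344 and 38216877, and 18366 to 20684 genes had a count. The 7 MSPC markers examined (Lepr, Cxcl12, Pdgfra, Kitl, Ebf3, Foxc1 and Adipoq) summed to between 48917 and 61858 CPM per library. CPM stands for the counts of a gene relative to the library size as scaled by the TMM method. Most of this sum was Cxcl12, at 39694 to 50718 CPM per library, while Ebf3, the lowest of the 7, had 149 to 264 CPM. Of the hematopoietic markers, the T cell gene Cd3e was at 0 in every library and Ptprc, the gene of the CD45 used to exclude blood cells, had at most 32 counts. The red cell gene Hbb-bt had between 198 and 641 counts per library, with a log2 fold change of 0.51 between genotypes (standard error 0.34). The 5 endothelial markers summed to between 4.25 and 5.59 CPM in CTR and between 1.68 and 5.29 CPM in cKO, with Tek at 0. The part of these other cells in the proteasome values was not tested.

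Promoter windows reaching from 250 bases before to 50 bases after the start of transcription were found in RefSeq (GRCm38.p6) for 36 of the 43 genes. The 7 without a window, which were not searched, were Psma8, Psmb1, Psmb2, the catalytic Psmb7, Psmc3, Psmd3 and Psmd7. The core letters of the antioxidant response element, TGACNNNGC, to which factors of the Nfe2l family bind, were searched on both strands because Nfe2l1 controls proteasome genes. They were present in the windows of 6 of the 36 genes (16.7%), against 3781 of all 27025 genes with a window and 17.2% of the 9835 such genes that were tested for expression. The matches that lie wholly within the 50 bases before the start are shown for the catalytic subunits Psmb5 and Psmb6 and the cap chaperone Psmd9, with the matched letters in capitals and all of them read 5′ to 3′ along the strand of the gene.
Psmb5 (chr14:54618008-54618067, minus strand): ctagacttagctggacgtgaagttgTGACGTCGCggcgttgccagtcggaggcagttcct
Psmb6 (chr11:70525323-70525356, plus strand): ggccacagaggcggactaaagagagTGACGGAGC
Psmd9 (chr5:123228134-123228189, plus strand): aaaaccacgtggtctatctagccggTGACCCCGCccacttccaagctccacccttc
The match begins 47 bases before the start in Psmb5, 9 bases before it in Psmb6 and 31 bases before it in Psmd9. A match in Psme4, in the opposite orientation, begins 7 bases before the start and runs past it, and Psmc6 and Psmd12 hold matches farther upstream. Of the general promoter letters, CCAAT was present for 14 of the 36 genes (38.9%, against 42.8% of expressed genes), GGGCGG for 21 (58.3%, against 68.8%) and TATAAA for 3 (8.33%, against 8.63%). The share of all genes with an element match within the 50 bases before the start was not counted. A match in these windows is a string of letters and not a measured binding site.

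Proteasome transcripts were abundant in MSPCs, and no difference between genotypes was detected. Together the 43 genes held 0.422% of all counts, with a summed level of 4235 ± 185 CPM in the 4 CTR mice and 4236 ± 252 CPM in the 4 cKO mice (mean ± SD). A count in every library was found for 42 of the 43, and these were tested. The 42 include Psmc3ip and are called proteasome genes here by the rule of their symbols. With edgeR's quasi-likelihood test and Benjamini-Hochberg adjustment over the 14598 genes tested, 0 of the 42 had an adjusted p-value under 0.05, where the share over all genes was 0.0%, and their adjusted p was 0.999. By unadjusted p-value, 0 of the 42 lay under 0.05, where 4.43% of all genes and 4.24% of those averaging 50 CPM or more did. Of the 42, 0 were called by limma-voom (0.0% of all genes), by DESeq2's Wald test (0.158%) and by its likelihood ratio test with title number as a further term (0.335%). For 0 of the 42 genes did the libraries of the genotypes separate without overlap, against 2.62% of all genes and 2.4% of those at this level. In cKO 24 genes had the higher and 18 the lower fitted level, and 49.8% of all genes were higher.

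The sizes of the differences were small as well. The median absolute log2 fold change was 0.050 over the 42 proteasome genes, 0.14 over all genes tested and 0.084 over the 3918 genes that averaged 50 CPM or more. Without Psmc3ip it was 0.048 over the 41 genes that remain. A log2 fold change beyond 0.25 in either direction was found for 1 of the 42, against 29.5% of all genes and 9.7% of those with 50 CPM or more. The spread between mice of the same genotype, as SD of log2 CPM, had a median of 0.13 for the proteasome genes, 0.30 for all genes and 0.18 for the genes with at least 50 CPM. For 38 of the 42 genes the 95% interval of the fold change lay within a log2 value of 0.5 on both sides of 0, and the exceptions were Psma8, Psmc3ip, Psme2b and Psmd10. Such an interval was found for 4995 of all 14598 genes and for 2965 of the 3918 with at least 50 CPM. By class, the median log2 fold change was 0.015 for the 15 tested genes of the 20S core, 0.0074 for the 20 of the cap and -0.037 for the 6 activators and regulators, with all genes at -0.0013.

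**Figure D1:**
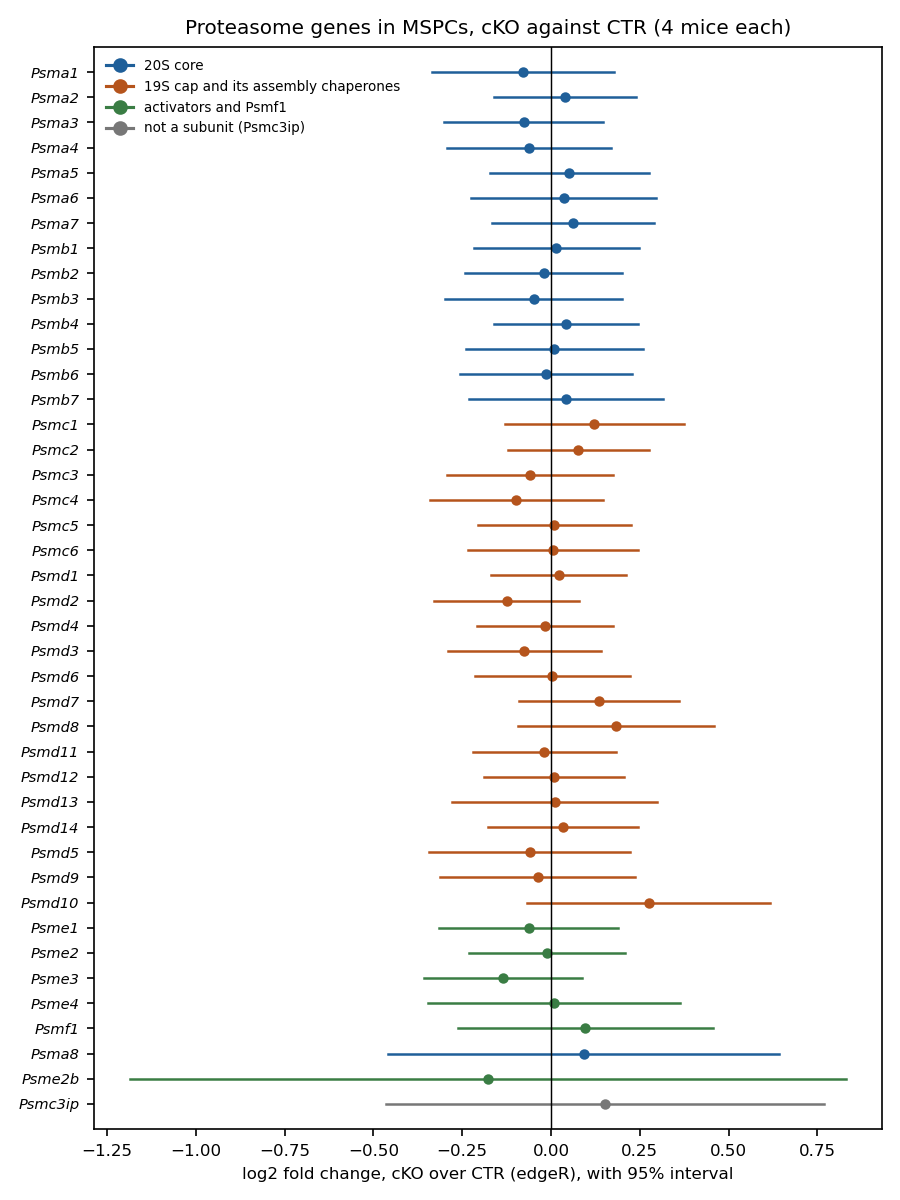
Log2 fold change of cKO over CTR (points) with its 95% interval (lines) for the 42 genes tested, Psmc3ip included, ordered by class and by place in the complex, from 4 mice per genotype. Every interval crosses 0, and the widest belong to the low genes Psme2b, Psmc3ip and Psma8.

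Among the catalytic subunits, Psmb5 (ENSMUSG00000022193.6, chromosome 14 of GRCm38 from 54614119 to 54618022) carries the chymotrypsin-like activity. It had 103, 99.1, 117 and 104 CPM in CTR1 to CTR4 and 113, 88.2, 119 and 106 CPM in cKO1 to cKO4. The genotypes overlap throughout, with the lowest value in cKO2 and the highest in cKO3. Its log2 fold change was 0.0096, with a 95% interval from -0.24 to 0.26. By shared stretches of 69 bases, 40.8% of the Psmb5 transcript sequence recurs in the pseudogene Gm3375 or in Mir686, which lies within its exons. Gm3375 had between 15 and 52 counts and Psmb5 between 3095 and 4091. Whether reads from the shared sequence were counted for Psmb5 was not tested, and its level may be too low if they were not.

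Psmb6 (ENSMUSG00000018286.6, chromosome 11 from 70525367 to 70527858), with the caspase-like activity, had 137, 135, 164 and 128 CPM in the CTR libraries. In cKO it had 137, 123, 151 and 148 CPM. CTR3 was highest and cKO2 lowest, and the log2 fold change was -0.014 (95% interval -0.26 to 0.23). Psmb7 (ENSMUSG00000026750.6, chromosome 2 from 38588036 to 38644087) carries the trypsin-like activity. Its values were 73.2, 58.2, 77.0 and 60.4 CPM in CTR and 71.6, 62.5, 76.9 and 65.7 CPM in cKO. Here the libraries divided by title number and not by genotype, with all 4 of 67 to 86 above all 4 of 26 to 32. Between genotypes the log2 fold change of Psmb7 was 0.042, from -0.23 to 0.31. The exons of Psmb7 overlap those of Nek6 on the opposite strand over 11.8% of their length, and whether the counting used strand is not given in the sources used here.

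Of the other core subunits, Psma5 shared the largest part of its sequence with pseudogenes, 38.4% of its 69-base stretches, and those pseudogenes had at most 13 counts. Psma3 shared 14.6% of its stretches, in part with the pseudogene Gm13835. That pseudogene had 107 to 179 counts, and Psma3 had 4516 to 6475. Psma1, an alpha ring subunit, had the most negative fold change of the core. It stood at 122, 120, 127 and 97.5 CPM in CTR and at 107, 97.1, 114 and 124 CPM in cKO. CTR4 and cKO2 were the low libraries of their genotypes, and the log2 fold change was -0.080 (95% interval -0.34 to 0.18). The most positive value of the core belonged to Psma8, the alpha subunit of the testis proteasome. Psma8 was low in MSPCs, with 6.02, 7.66, 7.33 and 10.6 CPM in CTR and 8.97, 8.89, 9.10 and 6.76 CPM in cKO. The groups overlap, and its log2 fold change was 0.092 with an interval from -0.46 to 0.64. Psmb11, the catalytic subunit of the thymus, had between 0 and 10 counts per library and was not tested. It had a count in cKO3 and cKO4 and 0 in the other libraries.

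In the cap, the ATPases Psmc1 to Psmc6 form the ring that unfolds substrates. The most positive of them was Psmc1, with 112, 103, 132 and 105 CPM in CTR and 129, 107, 134 and 123 CPM in cKO. Its ranges overlap almost wholly, at a log2 fold change of 0.12 (95% interval -0.13 to 0.37). Psmc4 was the most negative, with 99.4, 74.7, 91.7 and 83.5 CPM in CTR and 76.9, 77.8, 84.1 and 87.6 CPM in cKO. CTR1 and CTR3 lay above all cKO libraries while CTR2 lay below them, and the log2 fold change was -0.098 (-0.34 to 0.15). The other ATPases had log2 fold changes between these.

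Psmd1 and Psmd2 are the large scaffolds of the base, to which ubiquitin receptors and shuttle factors dock. Psmd1 had 173, 178, 178 and 183 CPM in CTR and 198, 168, 182 and 174 CPM in cKO. The CTR libraries were close to each other and lay inside the range of cKO, with a log2 fold change of 0.022 (95% interval -0.17 to 0.21). Psmd2 had 210, 186, 193 and 181 CPM in CTR and 177, 160, 191 and 178 CPM in cKO, so that cKO3 alone of the cKO libraries exceeded the lowest CTR library. Its log2 fold change was -0.12 (standard error 0.092, interval -0.33 to 0.080), and it was -0.12 within the title numbers 26 to 32 and -0.13 within 67 to 86. Psmd4, a ubiquitin receptor of the cap, had 92.5, 88.5, 88.9 and 86.7 CPM in CTR and 92.8, 83.2, 84.2 and 92.4 CPM in cKO. With a log2 fold change of -0.016 (interval -0.21 to 0.17), it was among the least variable proteasome genes.

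The lid holds Psmd14, the deubiquitinase that cuts the ubiquitin chain off the substrate. Psmd14 had 84.1, 74.7, 86.6 and 77.2 CPM in CTR and 78.1, 78.0, 85.7 and 88.6 CPM in cKO. Both genotypes spanned nearly the same range, and the log2 fold change was 0.034 (95% interval -0.18 to 0.25). The scaffold subunit Psmd3 was the most negative of the lid, with 156, 174, 189 and 179 CPM in CTR and 148, 168, 176 and 171 CPM in cKO and a log2 fold change of -0.075 (-0.29 to 0.14). Psmd8 was the most positive, with 102, 93.6, 118 and 85.8 CPM in CTR and 119, 102, 105 and 127 CPM in cKO. All cKO libraries of Psmd8 lay above CTR2 and CTR4, and CTR3 lay above cKO2 and cKO3. The fold change was 0.18 on the log2 scale (standard error 0.12, unadjusted p = 0.169 in edgeR), with 0.35 within 26 to 32 and 0.027 within 67 to 86.

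Psmd5, Psmd9 and Psmd10 are chaperones that assemble the base and leave before the cap is complete. Psmd10, also known as gankyrin, had the largest positive fold change of all proteasome genes and is named here after its values were seen. It had 24.5, 20.7, 18.1 and 24.1 CPM in CTR and 28.7, 23.7, 23.8 and 29.4 CPM in cKO. The cKO libraries were at the upper end, with cKO2 and cKO3 below the top CTR libraries. The fold change had a log2 value of 0.27 (standard error 0.15, 95% interval -0.069 to 0.62), at an unadjusted p of 0.105 and an adjusted p of 0.999 in edgeR. It was 0.24 within 26 to 32 and 0.31 within 67 to 86. For Psmd5 and Psmd9 the log2 fold changes were -0.060 and -0.038, with opposite signs in the title number groups. Exons of Gm26745 on the opposite strand overlap 25.5% of the exon length of Psmd9.

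PA28 is the activator that interferon induces, built from Psme1 and Psme2. Psme1 had 77.2, 82.8, 89.7 and 69.6 CPM in CTR and 86.6, 77.1, 68.5 and 73.5 CPM in cKO, a log2 fold change of -0.063 (95% interval -0.32 to 0.19). For Psme2 the values were 127, 124, 145 and 119 CPM in CTR and 136, 116, 124 and 135 CPM in cKO, and the log2 fold change was -0.012 (-0.23 to 0.21). In both genes CTR3 was the highest library and the genotypes overlap. Psme2b, a copy of Psme2, had between 6 and 32 counts. Psme2b shares 62.0% of its 69-base stretches with Psme2, which shares 24.0% of its own with Psme2b. The reads of Psme2b cannot be separated reliably from those of Psme2, and its log2 fold change of -0.18 had a standard error of 0.45.

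The nuclear activator PA28 gamma is encoded by Psme3. It had 117, 131, 126 and 107 CPM in CTR and 120, 106, 111 and 101 CPM in cKO, and cKO1 was the sole cKO library above CTR1. On the log2 scale the fold change was -0.13 (standard error 0.10, interval -0.36 to 0.089), with -0.19 within 26 to 32 and -0.073 within 67 to 86. Psme4, which encodes the activator PA200, had 36.1, 44.6, 40.4 and 42.9 CPM in CTR and 42.3, 43.8, 29.5 and 49.3 CPM in cKO. Both the lowest and the highest Psme4 values were in cKO, and its log2 fold change was 0.0081 (-0.35 to 0.36). Psmf1, the core-binding protein PI31, had 48.6, 34.0, 44.1 and 41.8 CPM in CTR and 56.9, 37.4, 40.4 and 45.5 CPM in cKO. Its libraries were widely spread, and the log2 fold change was 0.097 (-0.26 to 0.45). Psmc3ip, which encodes no subunit or regulator of the proteasome, had 4.79 to 9.91 CPM in CTR and 6.44 to 8.61 CPM in cKO.

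While genotype did not separate them, most core subunits lay on the same side of their means in 5 of the 8 libraries. The 14 subunits of the standard core summed to 1717, 1707, 1837 and 1609 CPM in CTR1 to CTR4 and to 1700, 1503, 1809 and 1846 CPM in cKO1 to cKO4. The means were 1717 ± 93.4 CPM in CTR against 1714 ± 154 CPM in cKO (mean ± SD, n = 4 per genotype). In cKO2 all 14 lay below their mean over the 8 libraries, against 46.5% of all genes, and 10 of the 14 had their lowest value there, against 11.8% of all genes and 17.1% of those with at least 50 CPM. In CTR4, 13 of the 14 lay below their mean. In CTR3 and in cKO3, 13 of the 14 lay above it, and in cKO4 12 did, with 7 at their highest value there, against 10.5% of all genes. Of the genes with at least 50 CPM, 47.5% lay above their mean in cKO2 and 50.5% in CTR4. In CTR3, cKO3 and cKO4 these shares were 56.1%, 55.5% and 46.6%. These libraries were singled out after their values were seen. In CTR1, CTR2 and cKO1 the core was evenly divided, with 7, 8 and 7 of the 14 above their mean. On average over the 14 genes, log2 CPM deviated by -0.18 in cKO2, by -0.096 in CTR4, by 0.10 in CTR3 and by 0.099 in cKO4.

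The 17 subunits of the cap deviated less, by -0.087 in cKO2 to 0.074 in CTR3. Their sums were 1956, 1913, 2064 and 1907 CPM in CTR and 1984, 1846, 2056 and 2010 CPM in cKO, or 1960 ± 72.7 and 1974 ± 90.2 CPM. The lowest and the highest library were the same as for the average deviation, cKO2 and CTR3. Per library, the ratio of summed core to summed cap CPM was 0.876 ± 0.0224 in CTR and 0.867 ± 0.0437 in cKO, between 0.814 in cKO2 and 0.918 in cKO4. Among all 42 genes tested, cKO2 was the lowest library for 18 and the highest for 0. cKO2 was also the library with the most genes with a count, 20684, at a total of 34973679 counts, and the part of this in its low core values was not tested. Without cKO2, the median log2 fold change of the core between genotypes was 0.072 in place of 0.015, and 0 genes were called.

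**Figure D2:**
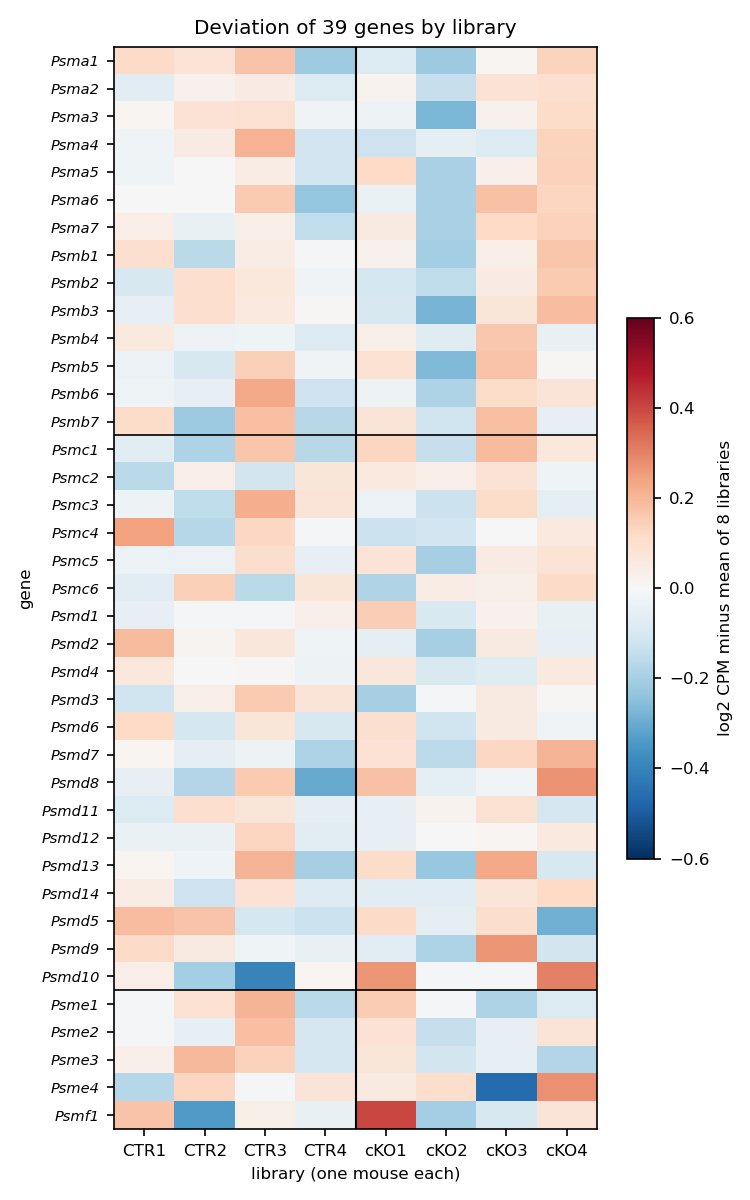
Deviation of log2 CPM from the mean of the 8 libraries (color) for 39 proteasome genes (rows, ordered as core, cap with its chaperones, and activators, separated by lines) in the 8 libraries (columns, CTR left and cKO right of the line). The core rows are below their mean in cKO2 and mostly above it in CTR3, cKO3 and cKO4, with both genotypes on either side.

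**Figure D3:**
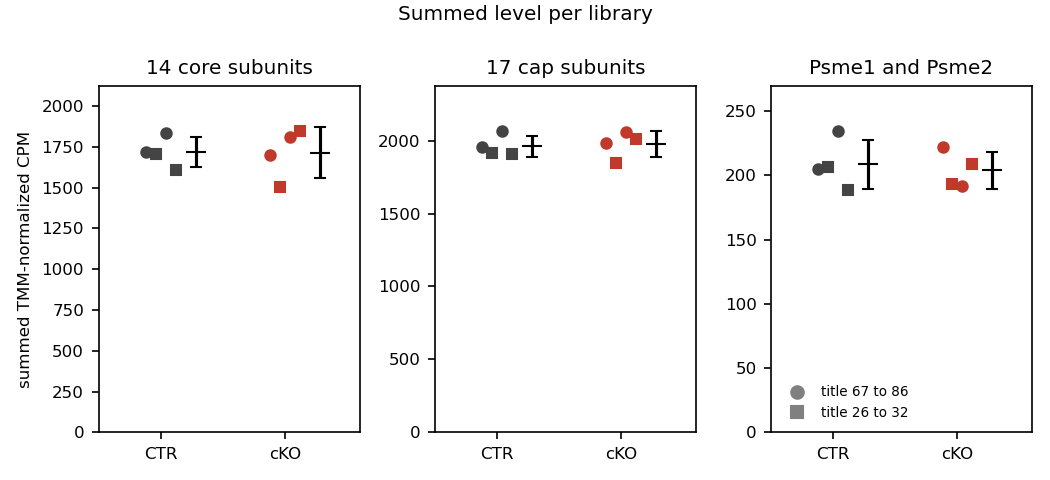
Summed TMM-normalized CPM per library of the 14 standard core subunits, the 17 cap subunits, and Psme1 with Psme2, with circles for title numbers 67 to 86 and squares for 26 to 32, and the mean ± SD of each genotype (n = 4) beside them. The genotype means of the core, 1717 and 1714 CPM, differ by far less than the spread of either group.

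Few proteasome genes had a low p-value between the title number groups. Between 67 to 86 and 26 to 32, 0 of the 42 genes passed an adjusted p-value of 0.05 in edgeR, where 0.0137% of all genes did, and 0 passed in DESeq2's Wald test, where 2.76% of all genes did. An unadjusted p under 0.05 in edgeR was found for 3 of the 42, and for 11.6% of all genes and 16.8% of those with 50 CPM or more. The 3 are Psmb7, Psmc1 and the lid subunit Psmd13. For Psmb7 the log2 fold change of 67 to 86 over 26 to 32 was 0.28 (standard error 0.084, adjusted p = 0.279), for Psmd13 it was 0.28 (standard error 0.094, adjusted p = 0.325) and for Psmc1 it was 0.21 (standard error 0.090, adjusted p = 0.414). Psmd13 had 73.3, 78.5, 83.8 and 85.1 CPM in the libraries of 67 to 86, in ascending order, and 62.1, 63.3, 68.1 and 71.4 CPM in those of 26 to 32. Exons of Sirt3 on the opposite strand overlap 10.1% of its exon length. In 67 to 86, 32 of the 42 genes had the higher fitted level, against 49.0% of all genes and 56.5% of those with 50 CPM or more. The median log2 fold change was 0.094 for the proteasome genes and 0.030 for genes with 50 CPM or more. The title number groups did not overlap for 6 of the 42 genes, against 6.87% of all genes and 9.39% of those with 50 CPM or more. These were Psmb4, Psmb7, Psmd6 and Psmd13, which were higher in 67 to 86, and Psmc6 and Psme4, which were higher in 26 to 32. Both title number groups hold 2 libraries of each genotype, and the genotype difference had the same sign in both for 18 of the 42 genes and for 53.5% of all genes.

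Levels of different subunits can be compared only per length, and the order depends on which length is used. The lengths are those of GENCODE M21, in which 35 of the 43 genes carry the identifier version of the counted table, and the 8 others include Psmb1, Psmb5, Psmc6 and Psmd2. Taken per kilobase of the union of all annotated exons, the 14 core genes ranged from 19.9 CPM (Psmb7) to 118 CPM (Psmb5), a 5.93-fold range. Per kilobase of the principal transcript they ranged from 50.9 CPM (Psma2) to 176 CPM (Psmb6), a 3.46-fold range, with medians of 44.3 and 94.6 CPM per kilobase. Psmb6, for example, was ranked 5 of 14 by the union and 1 by the principal transcript. The levels of Psmb5 and Psma5 may be too low on either length, since 40.8% and 38.4% of their transcript sequence is shared with other genes. Whether reads from shared sequence were counted was not tested. The 17 cap genes ranged from 16.9 (Psmd11) to 73.8 (Psmc5) CPM per kilobase of union and from 34.6 (Psmc6) to 101 (Psmd7) CPM per kilobase of principal transcript. On either length the median of the cap genes, 31.6 and 62.3 CPM per kilobase, lay below that of the core. Since the length choice moves single genes by more than the difference between neighbors, no order of subunits is given beyond these.

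**Figure D4:**
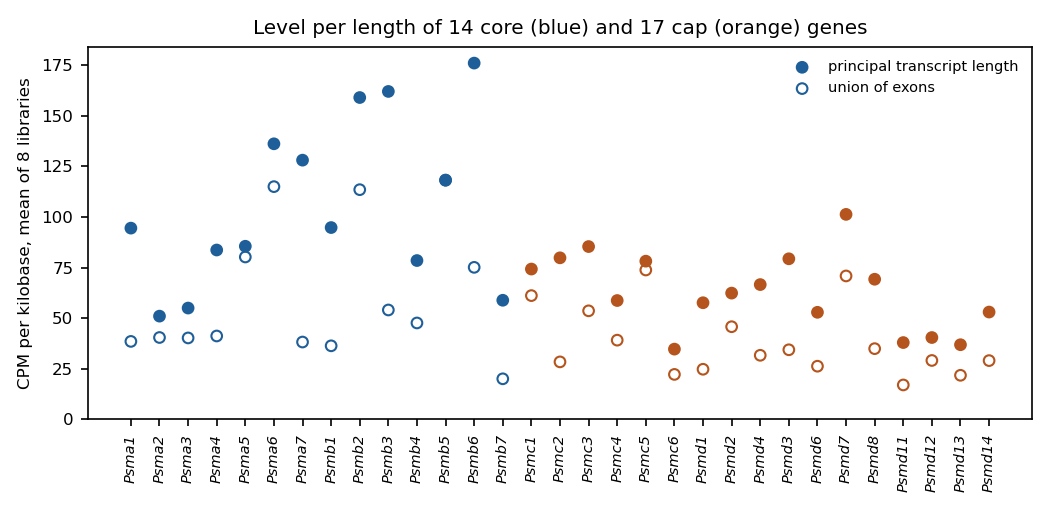
Mean CPM per kilobase over the 8 libraries of 14 core (blue) and 17 cap (orange) genes, by the length of the principal transcript (filled) and by the union of exons (open). The points of a gene lie far apart where the union is much longer than the principal transcript, as for Psmb6 at 176 and 75.1, and coincide for Psmb5 at 118.

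The inducible subunits Psmb8, Psmb9 and Psmb10 replace Psmb5, Psmb6 and Psmb7 in the immunoproteasome. In MSPCs all 3 were detected in every library. Per kilobase of principal transcript, Psmb8 stood at 1.04 ± 0.0419 times the level of Psmb5 in CTR and 1.12 ± 0.131 times in cKO (SD, n = 4 each). Psmb9 stood at 0.280 ± 0.0199 and 0.286 ± 0.0438 times the level of Psmb6, and Psmb10 at 1.28 ± 0.221 and 1.27 ± 0.156 times that of Psmb7. With the union of exons the ratio of Psmb8 to Psmb5 was 0.499 in CTR and 0.540 in cKO. That of Psmb10 to Psmb7 was 2.91 in CTR and 2.87 in cKO. The ratios of Psmb8 to Psmb5 may be too high on either length, since 40.8% of the Psmb5 transcript sequence is shared with other genes. Reads from the shared sequence may not have been counted for Psmb5, which was not tested. The log2 fold changes between genotypes were 0.11 for Psmb8, 0.011 for Psmb9 and 0.044 for Psmb10. In edgeR 0 of the 3 were called and 0 had an unadjusted p under 0.05, against 0.0% and 4.43% of all genes.

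In the genes that build and feed the proteasome, likewise, no difference between genotypes was detected. In each of the lists 0 genes were called, 0 had an unadjusted p under 0.05 in edgeR and 0 had genotypes that did not overlap. Over all genes these shares were 0.0%, 4.43% and 2.62%, so that counts of 0 in lists this short tell little. Of the 6 assembly chaperones listed, 5 were matched and tested, with a median log2 fold change of -0.041. The most negative was Psmg4, at 10.9 ± 2.70 CPM in CTR and 7.67 ± 1.48 CPM in cKO (log2 fold change -0.51, standard error 0.25), while Pomp, the maturation protein of the core, was at 0.0015. The 7 proteins that associate with the cap, among them the ubiquitin receptor Adrm1 and the deubiquitinases Uchl5 and Usp14, had a median of 0.0100. Among 10 genes of transcriptional control the median was 0.071, with Nfe2l1 at -0.026 and its relative Nfe2l2 at -0.070. Nfe2l1 ranged from 61.7 to 71.5 CPM in CTR and from 50.2 to 78.4 CPM in cKO. Among ubiquitin and E1 genes, the log2 fold change was 0.13 for the ubiquitin gene Ubb (standard error 0.11) and 0.084 for Uba1, the main ubiquitin-activating enzyme (standard error 0.098). Of 6 shuttle factors, which carry ubiquitinated proteins to the cap, 5 were tested, with a median of 0.088.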

How the data were processed

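In 8 libraries, RNA from sorted MSPCs was sequenced. By the study's methods, the authors trimmed the paired reads, aligned them to GRCm38 with HISAT2 and counted them per gene with HTSeq-count, and they deposited raw counts without normalization. Whether the counting used strand is not given in the sources used here. Of 52636 genes, 52403 were matched to a symbol. In the deposited counts, 55.1% of the values from 4 to 23 are odd.

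From these counts, TMM-scaled CPM were computed. The main test was edgeR 4.0.16 in R 4.3.3 with genotype alone, by glmQLFit and glmQLFTest, over genes whose count exceeded 0 in all libraries. P-values were adjusted by Benjamini-Hochberg and called under 0.05. Intervals of fold changes are approximate, from the fold change and its standard error. Title numbers were tested likewise, with genotype as a further term. Alternatives were DESeq2 1.42.0, limma-voom (limma 3.58.1), other scalings, other filters on low counts, a term for the title number, the replicate number as a block, and leaving out each library. The length of the principal transcript was added after the data were seen. The fits were tested on simulated data.

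The genes and lists were chosen with earlier results of these data known. Named were the catalytic, activator and key cap subunits, the largest rise and fall in each part of the complex, and genes with an unadjusted p under 0.05 or groups that do not overlap between genotypes. Coordinates, lengths and overlaps are from GENCODE M21, whose release differs from that the methods name, and 35 of the 43 genes have the same identifier version in both. Single-cell data were not used here, and some genes of the lists are not reported here.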

Additional observations from a re-analysis of the deposited data

Results flagged for a closer look

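In 84 groups of 4 libraries (42 proteasome genes in each genotype), a library stood apart from the other 3 of its genotype in 4 cases by Dixon's ratio of gap to range at its 95% critical value, where chance alone gives about 1 in 20 groups. Psmc5, an ATPase of the base, was affected in both genotypes, with 110 CPM in CTR3, where the other CTR libraries had at most 100.2 CPM, and with 89.4 CPM in cKO2, where the other cKO libraries had at least 106 CPM. The lid subunit Psmd12 had 83.9 CPM in CTR3, and at most 74.8 CPM in the others. For Psma8 the cKO4 library was the lowest, at 6.76 CPM, with at least 8.89 CPM in the other cKO libraries.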

How the results depend on the processing

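Under each of 18 alternatives for the genotype comparison, 0 proteasome genes were called, while over all genes 23 were called by DESeq2's Wald test, 47 by its likelihood ratio test with title number as a term, and 0 or 1 under the others. The lowest unadjusted p was 0.0535, for Psmd8 without CTR3. The fold changes of 19 named genes gave 342 values under the alternatives, none beyond a log2 value of 0.335, and 29 of these, in 10 genes, had another sign, the largest of them at -0.090. Outside the fits that leave out a library, this concerned Psme4 alone, at -0.0011 with DESeq2's likelihood ratio test, -0.0070 with limma-voom, -0.00064 when the title number group was a term and -0.011 with the replicate number as a block. When single libraries were left out, the values ranged from -0.019 to 0.26 for Psma8, -0.047 to 0.089 for Psmb5, -0.059 to 0.061 for Psmb6, -0.027 to 0.11 for Psmb7, -0.030 to 0.052 for Psmd1, -0.0061 to 0.065 for Psmd14, -0.046 to 0.0088 for Psmd4, -0.050 to 0.045 for Psme2, -0.090 to 0.14 for Psme4 and -0.039 to 0.17 for Psmf1. The cause was not tested. The class medians ranged from -0.026 to 0.072 for the core, -0.023 to 0.028 for the cap and -0.067 to -0.0051 for the activators.

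Libraries with the same replicate number correlated in their deviations from the genotype means by 0.12, 0.17, 0.085 and 0.055. For CTR1, CTR2 and CTR3 the cKO library of the same number was the closest, while CTR4 correlated more with cKO2 (0.13) than with cKO4. Across title number groups all correlations were negative. Deviations from a genotype mean sum to 0, so this follows in part from the positive correlations within the groups. Libraries of the same number always share the title number group. The replicate numbers therefore do not establish pairs. With the replicate number as a block, 0 proteasome genes were called, and the median log2 fold change of the core was 0.012. The median distance of an interval's end from the fold change was 0.23 on the log2 scale, without adjustment for the number of genes tested. Larger differences in a single gene can go uncalled after adjustment. In edgeR, the lowest unadjusted p over all genes, 0.000141, had an adjusted p of 0.894.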
